A study of Saccharomyces cerevisiae with 15 samples.

Results

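Saccharomyces cerevisiae strains carrying a fusion of the transcription factor Pdr1 to Cyc8 were compared with strains carrying a fusion of Pdr1 to Sin3, in cells that kept their own PDR1 gene. The comparison rests on 6 of the 15 arrays of the study, 3 labelled Pdr1-Cyc8 and 3 labelled Pdr1-Sin3, which were chosen by their titles. The other 9 arrays are 3 each of Pdr1-Cyc8 Dpdr1 (the Cyc8 fusion in cells with PDR1 deleted), of Dpdr1 (the deletion alone) and of the empty vector. All cultures grew logarithmically at 30 degrees C in synthetic dextrose medium, and labelled cRNA made from 10 µg of total RNA was hybridised to Affymetrix YG-S98 arrays. The design text calls the fusions dominant-negative repressors. The labels give neither the strain background nor the promoter, the vector and the fused segments of PDR1, CYC8 and SIN3. The labels call the replicates biological and do not say whether they came from separate transformants, so p-values measure only the spread between these samples.

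Pdr1 is a zinc cluster activator of the pleiotropic drug resistance (PDR) genes, which encode drug efflux pumps of the ABC family and proteins that handle membrane lipids. Cyc8, also known as Ssn6, works with Tup1 as a general corepressor of glucose-repressed, hypoxic, flocculation and mating-type-specific genes. Sin3 is the scaffold of the Rpd3 histone deacetylase complexes, which are brought to early meiotic genes by the DNA-binding protein Ume6. A fusion of Pdr1 to either protein places a different corepressor on the same DNA-binding factor.

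The arrays of the compared groups differed in their hybridisation controls. The BioC spike-in exceeded BioB by 1.19, 1.06 and 1.19 on the log2 scale on the Pdr1-Cyc8 arrays, and differed from it by -0.64, -0.20 and -0.25 on the Pdr1-Sin3 arrays. The corresponding differences were -0.23, -0.23 and -0.36 on the Pdr1-Cyc8 Dpdr1 arrays, and 1.02 to 1.32 on the Dpdr1 and empty-vector arrays. No group holds both kinds of array, so the spike-in set and the choice of corepressor cannot be told apart in the main comparison. For that reason the values of Pdr1-Cyc8 Dpdr1 against Pdr1-Sin3, which share a spike-in set, are set beside the main ones. That second comparison uses the same Pdr1-Sin3 arrays and also differs by the deletion. Within groups, arrays correlated at 0.956 to 0.971 for Pdr1-Cyc8 and at 0.974 to 0.977 for Pdr1-Sin3 (Pearson, across probe sets). Pdr1-Cyc8 replicate 1 stood apart in its ribosome assembly genes, which averaged -1.26 relative to the empty vector (log2), against -0.47 and -0.49 on the other Pdr1-Cyc8 arrays and -0.54 to -0.73 on the Pdr1-Sin3 arrays. The labels do not give the mating type, and levels of different probe sets cannot be set against each other. Between the groups, the a-factor gene MFA1 averaged 13.78 with Pdr1-Cyc8 and 13.31 with Pdr1-Sin3, and STE3, the receptor made by alpha cells, averaged 6.41 with Pdr1-Cyc8 and 5.86 with Pdr1-Sin3, neither of them called. The alpha-factor gene MF(ALPHA)1 averaged 8.81 with Pdr1-Cyc8 and 7.73 with Pdr1-Sin3 and was not called. MF(ALPHA)2, also an alpha-factor gene, averaged 6.07 with Pdr1-Cyc8 and 6.22 with Pdr1-Sin3 and was not called. All 5 measured markers of a cells lay above 0. Of these 1 was called higher, BAR1 (difference 1.31), against 0.955% of all genes. URA3 was near the floor of the scale, at 4.25 with Pdr1-Cyc8 and 4.49 with Pdr1-Sin3, and so was MET17, at 5.06 with Pdr1-Cyc8 and 5.17 with Pdr1-Sin3. Both belong to 7 measured marker genes of laboratory strains, of which 0 were called, near the 2.49% called over all genes. LYS2 averaged 11.05 with Pdr1-Cyc8 and 8.74 with Pdr1-Sin3 (limma adjusted p = 0.0861). HIS3 averaged 10.73 with Pdr1-Cyc8 and 9.77 with Pdr1-Sin3, and LEU2 averaged 12.84 with Pdr1-Cyc8 and 13.33 with Pdr1-Sin3.

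Levels are given throughout as log2(signal + 16) after quantile normalisation, on a scale whose floor is 4, and differences as Pdr1-Cyc8 minus Pdr1-Sin3. Each transcript joined to Pdr1 was high in the strain that carried it. CYC8 stood at 12.61, 12.13 and 12.05 on the Pdr1-Cyc8 arrays, against 8.60, 8.85 and 8.53 on the Pdr1-Sin3 arrays. SIN3 stood at 8.12, 8.57 and 8.33 with Pdr1-Cyc8 and at 11.58, 11.46 and 11.31 with Pdr1-Sin3. The groups did not overlap for either gene, with differences of 3.61 for CYC8 (SE 0.270, limma adjusted p = 2.26e-06) and -3.11 for SIN3 (SE 0.216, limma adjusted p = 1.19e-06). PDR1 stood at 9.17, 8.93 and 9.10 with Pdr1-Cyc8 and at 8.40, 8.81 and 8.80 with Pdr1-Sin3. Its difference of 0.40 did not pass (95% interval -0.09 to 0.88, limma adjusted p = 0.379). The same probe set stood at 9.04, 9.25 and 8.93 with the empty vector and at 5.05, 4.79 and 4.27 with Dpdr1. With Pdr1-Cyc8 Dpdr1 it stood at 6.79, 7.21 and 6.81. It thus reads the endogenous gene, and in deleted cells it was higher where the Cyc8 fusion was present. How much of each level comes from a fusion was not measured. The partners of the corepressors were not called. TUP1 differed by 0.05 (interval -0.59 to 0.68) and the deacetylase gene RPD3 by 0.04 (interval -0.44 to 0.51). Of the 13 measured subunits of the Sin3-Rpd3 complexes besides SIN3, 0 passed, a count near the 2.49% called over all genes. RXT3 was the farthest from 0 at -0.70 (limma adjusted p = 0.158).

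**Figure D1:**
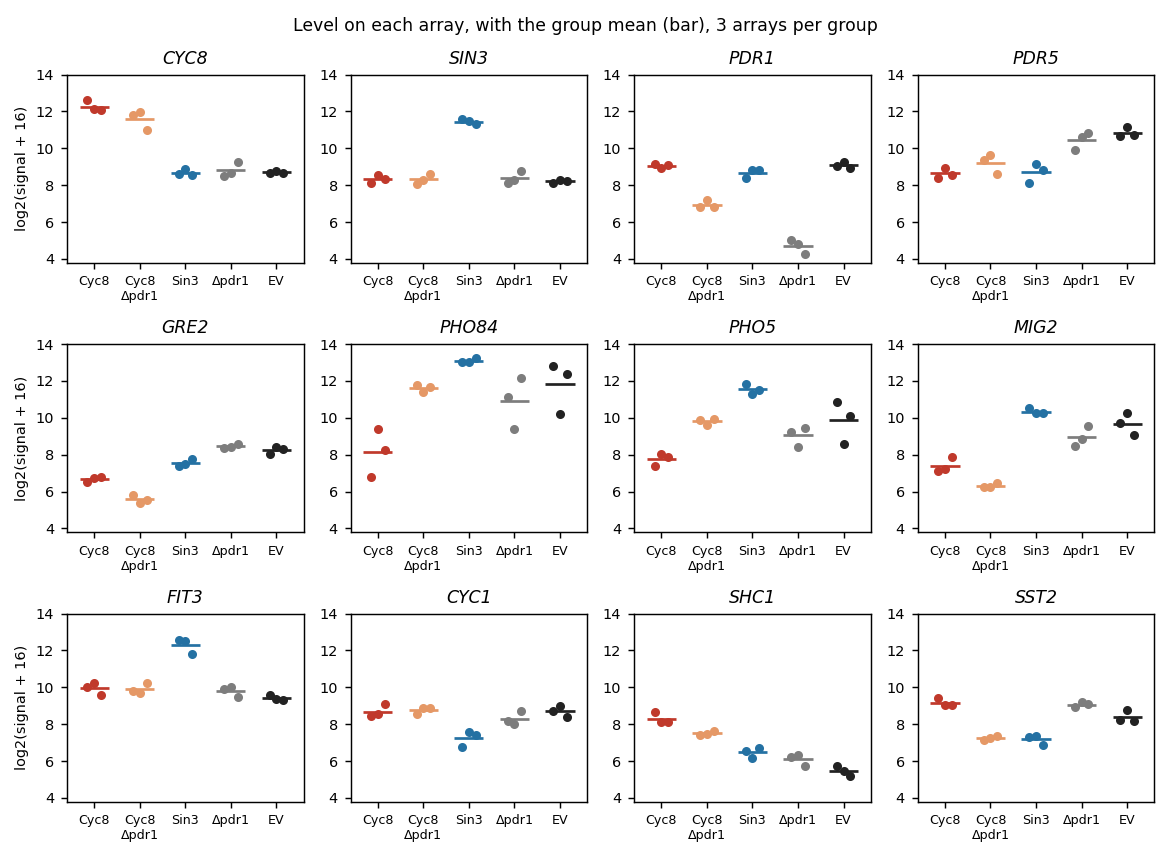
Level of 12 genes as log2(signal + 16), on each array (points) and as group means (bars), for Pdr1-Cyc8, Pdr1-Cyc8 in the PDR1 deletion, Pdr1-Sin3, the deletion alone and the empty vector (EV), 3 arrays each. CYC8 and SIN3 are high where they are part of the fusion, PDR5 overlaps between Pdr1-Cyc8 and Pdr1-Sin3, and PHO84, PHO5, MIG2 and FIT3 are lower with Pdr1-Cyc8 on all 3 arrays.

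Among the PDR genes, 1 was called, GRE2, which was lower with Pdr1-Cyc8. Of 27 listed targets 24 were measured. Over all measured genes 141 of 5656, or 2.49%, were called (0.955% higher and 1.54% lower with Pdr1-Cyc8), so 1 of 24 is near the background. The median difference of the 24 was -0.27, against 0.01 over all genes, and 16 of them lay below 0.

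Repression of the PDR genes is the question the title of the series names. PDR5, the main drug pump of the plasma membrane, stood at 8.40, 8.95 and 8.55 with Pdr1-Cyc8, against 8.14, 9.14 and 8.81 with Pdr1-Sin3 and 10.68, 11.14 and 10.71 with the empty vector. The fusion groups overlapped fully and both lay below every empty-vector array. Their difference was -0.06 (95% interval -0.76 to 0.63, limma adjusted p = 0.946), and the other 6 probe sets of PDR5 ranged from -0.69 to 0.58 with none called. The interval allows PDR5 to be lower by up to 0.76 or higher by up to 0.63 with Pdr1-Cyc8, so it does not show that the fusions act alike.

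SNQ2, another ABC pump, stood at 9.52, 10.08 and 9.34 with Pdr1-Cyc8, against 9.24, 8.89 and 9.10 with Pdr1-Sin3, and all 3 Pdr1-Cyc8 arrays were the higher ones. The difference of 0.57 did not pass (interval 0.01 to 1.13, limma adjusted p = 0.267). YOR1, an ABC transporter named for oligomycin resistance, differed by 0.54 (interval -0.19 to 1.27) with overlapping groups. The pumps PDR10 and PDR15 and the transporters TPO1, TVS1 and FLR1 differed by -0.40 to 0.27. Where the cells with the Cyc8 fusion lack PDR1, the second comparison called 136 of 5656 genes (2.40%, with 1.04% higher and 1.36% lower). There SNQ2 was lower, with a difference of -1.23 (limma adjusted p = 0.0226) and YOR1 with -1.82 (limma adjusted p = 0.0116), while PDR5 differed by 0.51 and was not called.

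GRE2, an NADPH-dependent methylglyoxal reductase, stood at 6.51, 6.75 and 6.81 with Pdr1-Cyc8, against 7.40, 7.48 and 7.78 with Pdr1-Sin3 and 8.06, 8.41 and 8.32 with the empty vector. The 3 groups did not overlap. The difference was -0.87 (SE 0.198, limma adjusted p = 0.0312), and -1.98 in the second comparison (limma adjusted p = 3.76e-05). The call was lost when any array other than Pdr1-Cyc8 replicate 3 was left out (highest adjusted p = 0.133), with the deposited values without quantile normalisation, and when only the 6 arrays were fitted. Among the lipid genes, the phosphatidylinositol transfer protein gene PDR16 differed by -0.44 (interval -0.98 to 0.11), the acyltransferase gene ICT1 by -0.20 (interval -1.10 to 0.71) and the sphingolipid synthesis gene IPT1 by -0.55 (interval -1.24 to 0.13). PDR16 was lower in the second comparison, with -1.57 (limma adjusted p = 0.00492). PDR3, the paralogue of PDR1, stood at 6.89, 6.79 and 6.59 with Pdr1-Cyc8 and at 7.38, 7.13 and 7.13 with Pdr1-Sin3. Those arrays did not overlap, and the difference of -0.45 did not pass (limma adjusted p = 0.203).

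**Figure D2:**
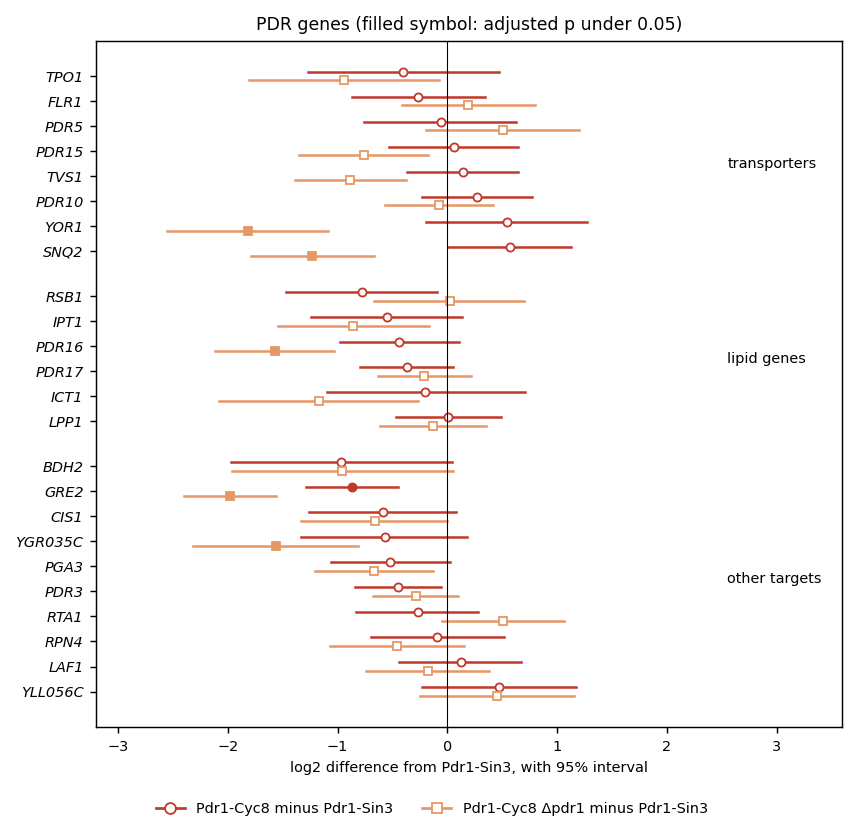
Log2 differences of the 24 measured PDR genes with 95% intervals, for Pdr1-Cyc8 minus Pdr1-Sin3 (circles) and for Pdr1-Cyc8 in the PDR1 deletion minus Pdr1-Sin3 (squares), in groups by role. In the first comparison GRE2 alone is filled (adjusted p under 0.05); in the second SNQ2, YOR1, PDR16, GRE2 and YGR035C are filled, all below 0.

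The whole table of 9275 probe sets held 252 calls (2.72%), 96 of them higher (1.04%) and 156 lower (1.68%) with Pdr1-Cyc8. An unadjusted p under 0.05 was found for 1687. There were 93 calls without Pdr1-Cyc8 replicate 1, and 83, 117 and 132 without Pdr1-Sin3 replicates 1, 2 and 3. Of the 51 named genes that were called, 17 stayed called whichever of the 6 arrays was left out: CYC8, SIN3, SST2, SHC1, PHO84, PHO5, SPL2, PHM6, PHO89, MIG2, FIT2, FIT3, POL30, ERG28, SNR52, YNCM0020W and SNR14. The other 34 lost their calls in at least 1 of these 6 fits. Among the 17, CYC8, SST2 and SHC1 were higher with Pdr1-Cyc8 and the rest lower. In RNA from whole cultures, fewer cells that express a gene and less RNA per cell cannot be told apart.

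**Figure D3:**
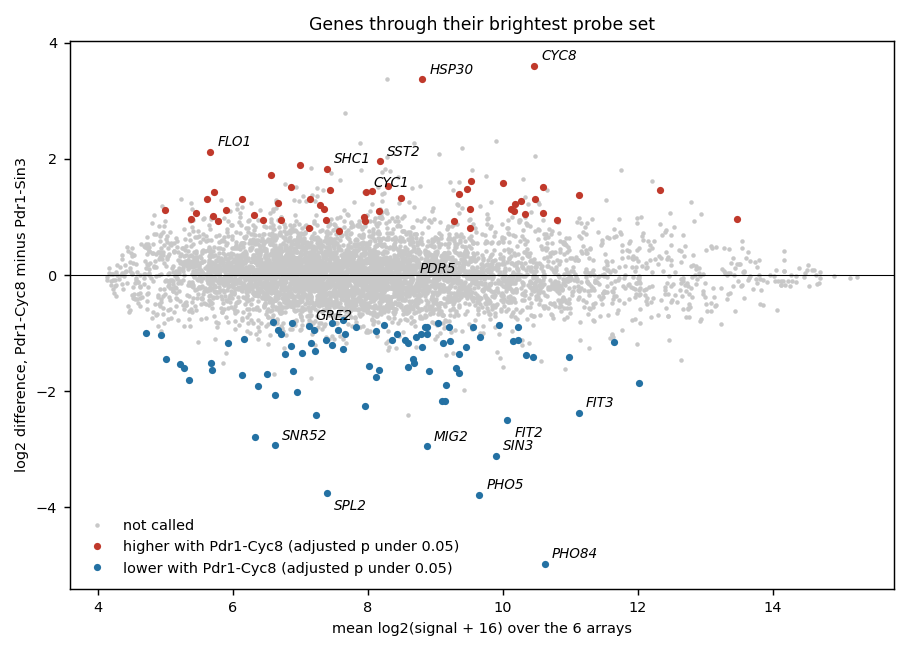
Log2 difference, Pdr1-Cyc8 minus Pdr1-Sin3, against the mean level over the 6 arrays for each gene through its brightest probe set. Called genes are coloured (54 higher and 87 lower); the phosphate genes PHO84, PHO5 and SPL2 lie lowest, and CYC8 and HSP30 highest.

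Genes of phosphate starvation were lower with Pdr1-Cyc8 in 12 cases. Under low phosphate, the activator Pho4 turns on transporters, secreted phosphatases and the polyphosphate polymerase, while the cyclin and kinase Pho80 and Pho85 hold Pho4 inactive when phosphate is plentiful. Those 12 were among 21 measured members, of which 0 were higher, against a background of 1.54% lower, with a list median of -1.13. Leaving out any array gave 9 to 11 lower members.

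PHO84, the high-affinity phosphate transporter, stood at 6.80, 9.39 and 8.23 on the Pdr1-Cyc8 arrays, against 13.05, 13.03 and 13.24 on the Pdr1-Sin3 arrays. The Pdr1-Cyc8 arrays were spread over more than 2 log2 units and all lay far below the tight Pdr1-Sin3 arrays. The difference was -4.97 (SE 0.716, limma adjusted p = 0.0017), the most negative of all genes. On the other arrays of the study PHO84 stood at 11.76, 11.38 and 11.67 with Pdr1-Cyc8 Dpdr1, at 11.13, 9.40 and 12.16 with Dpdr1, and at 12.83, 10.23 and 12.37 with the empty vector. Dpdr1 replicate 2 was level with Pdr1-Cyc8 replicate 2, and the rest of these arrays lay above all Pdr1-Cyc8 arrays.

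PHO5, the secreted acid phosphatase, stood at 7.37, 8.02 and 7.89 with Pdr1-Cyc8, against 11.82, 11.29 and 11.52 with Pdr1-Sin3 (difference -3.78, SE 0.435, limma adjusted p = 0.000237). SPL2, which lowers low-affinity phosphate uptake, stood at 5.37, 5.82 and 5.36 with Pdr1-Cyc8, against 9.20, 9.15 and 9.47 with Pdr1-Sin3 (difference -3.76, SE 0.470, limma adjusted p = 0.000546), or -4.31 with a pseudocount of 1 and -2.83 with 64. In neither gene did the groups come near each other. PHM6, a phosphate-regulated gene near the floor of the scale with Pdr1-Cyc8, differed by -2.78 (limma adjusted p = 0.00144, or -3.70 with a pseudocount of 1 and -1.71 with 64), and the sodium-phosphate cotransporter gene PHO89 by -2.25 (limma adjusted p = 0.00346). The 4 subunits of the vacuolar polyphosphate polymerase were all lower, with differences of -1.85 for VTC1, -1.24 for VTC2, -1.88 for VTC3 and -1.41 for VTC4. GPP2, a glycerol phosphatase, differed by -1.65, PHO86, which helps the Pho84 protein leave the endoplasmic reticulum, by -1.07, and PHO81, the inhibitor of the Pho80-Pho85 kinase, by -1.13. The regulators themselves were not called, with 0.31 for PHO4, 0.15 for PHO80, 0.02 for PHO85 and -0.76 for PHO2.

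Averaged over the list and set against the empty-vector mean, the phosphate genes lay at -0.49, -0.38 and -0.66 on the Pdr1-Cyc8 arrays and at 0.86 to 1.0 on the Pdr1-Sin3 arrays, so the fusions lay on opposite sides of the empty vector. With Pdr1-Cyc8 Dpdr1 the list lay at -0.04, -0.04 and 0.23, and with Dpdr1 at -0.15, -0.39 and 0.00. The second comparison called 4 of 21 lower, against 1.36% of all genes (PHO5 at -1.74, SPL2 at -2.17, PHM6 at -2.12 and GPP2 at -1.87), and PHO84 differed by -1.50 without passing (limma adjusted p = 0.293). Empty-vector replicate 2 was itself low in PHO84, PHO5 and SPL2, at 10.23, 8.57 and 5.71, so cultures without a fusion also varied in these genes.

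Among iron uptake genes, 3 of the siderophore route (FIT2, FIT3 and ARN2) were lower with Pdr1-Cyc8. Siderophores are secreted iron chelators that yeast takes up from other microbes, with FIT mannoproteins of the cell wall holding them near the ARN transporters. FIT3 stood at 10.03, 10.21 and 9.58 with Pdr1-Cyc8, against 12.56, 12.54 and 11.83 with Pdr1-Sin3 (difference -2.37, SE 0.258, limma adjusted p = 0.000163). FIT2 stood at 8.84, 10.06 and 7.54 with Pdr1-Cyc8, against 11.38, 11.53 and 11.05 with Pdr1-Sin3 (difference -2.50, SE 0.449, limma adjusted p = 0.00803). Both genes separated the groups, and in both the Pdr1-Sin3 arrays were above all 3 empty-vector arrays, which ran from 9.30 to 9.57 for FIT3 and from 7.11 to 7.41 for FIT2. On the Dpdr1 arrays FIT2 stood at 9.15, 8.65 and 8.35, among the Pdr1-Cyc8 arrays. FIT2 lost its call when only the 6 arrays were fitted (adjusted p = 0.0588).

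The siderophore transporter gene ARN2 was also lower, with a difference of -2.17 (limma adjusted p = 0.0436), a call that was lost without any array except Pdr1-Cyc8 replicate 2 (highest adjusted p = 0.129) and with the deposited values. Of 7 measured siderophore genes 3 were lower, against 1.54% of all genes. Their list average above the empty vector was 1.13, 1.52 and 0.08 with Pdr1-Cyc8 and 2.04, 2.21 and 2.19 with Pdr1-Sin3, so Pdr1-Cyc8 replicate 3 lay near the empty vector, and replicates 1 and 2 between it and the Pdr1-Sin3 arrays. In the second comparison 5 of 7 were lower, against 1.36% of all genes, with differences of -4.04 for FIT2 and -2.40 for FIT3. Of the 22 other iron genes 2 were lower and 1 higher, where 1.54% and 0.955% of all genes were. The lower ones were the heme oxygenase gene HMX1 (-1.27) and the copper chaperone gene ATX1 (-0.89), and the higher one was the vacuolar metal transporter gene SMF3 (1.14). The calls of HMX1 and ATX1 were lost whichever array was left out (highest adjusted p = 0.128 and 0.161), and SMF3 kept its call only without Pdr1-Cyc8 replicate 3. The high-affinity iron oxidase FET3 and permease FTR1 differed by -0.70 and -1.18 without passing. TIS11 had the most negative difference of the 22, at -2.41, and did not pass (limma adjusted p = 0.0824). The second comparison called 2 of the 22 lower, TIS11 (-3.21, limma adjusted p = 0.0247) and HMX1 (-1.72), and 0 higher. Over all genes it called 1.36% lower and 1.04% higher.

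MIG2, a zinc finger repressor induced by high glucose, was lower with Pdr1-Cyc8. It stood at 7.11, 7.21 and 7.88 with Pdr1-Cyc8, against 10.51, 10.26 and 10.25 with Pdr1-Sin3 and 9.72, 10.24 and 9.07 with the empty vector. The difference was -2.94 (SE 0.315, limma adjusted p = 0.000163). The second difference was -4.03 (limma adjusted p = 6.2e-06), with Pdr1-Cyc8 Dpdr1 at 6.25, 6.23 and 6.45. Both groups with the Cyc8 fusion therefore lay below every Pdr1-Sin3 and empty-vector array. SKS1, a kinase gene of adaptation to low glucose, was lower (difference -1.57, limma adjusted p = 0.0277), as was GLC7, the catalytic subunit of protein phosphatase 1 (difference -1.12, limma adjusted p = 0.0122), and both calls were lost without Pdr1-Cyc8 replicate 1 or Pdr1-Sin3 replicate 1 (highest adjusted p = 0.129 for SKS1 and 0.076 for GLC7). SKS1 was also lost without Pdr1-Cyc8 replicate 3 or Pdr1-Sin3 replicate 2. Those 3 were the calls among 14 glucose signalling genes, against 1.54% lower over all genes, with a median of -0.65. The second comparison had a list median of 0.08. It called 2 of 14 lower, MIG2 and SKS1 (-2.04), and 0 higher, against 1.36% and 1.04% of all genes. GLC7 differed there by -0.48 and was not called. Among genes repressed in glucose, the class on which the Mig repressors act, 0 of 33 were called, as were 0 of 13 hexose transporters, counts near the 2.49% called over all genes.

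Environmental stress genes lay below 0 in 39 of 43 cases, where 2768 of all 5656 genes did, with a median of -0.53. Lower calls were made for 3 of them, against 1.54% of all genes: SOL4, a homologue of the pentose phosphate pathway lactonases, at -1.41, TSL1, a subunit of trehalose synthase, at -1.14, and the reticulon gene RTN2 at -1.01 (limma adjusted p = 0.0375, 0.047 and 0.0286). Each kept its call in 1 of the 6 fits that left out 1 array. Without Pdr1-Cyc8 replicate 1 and Dpdr1 replicates 1 and 2, the 3 arrays where ribosome assembly genes were lowest, 0 stress genes were called. That fit called 19 of all 5656 genes higher and 46 lower, so 0 of 43 is near its background. Against the empty vector the list averaged 1.02, 1.04 and 0.63 with Pdr1-Cyc8 and 1.24 to 1.5 with Pdr1-Sin3. As group means it lay at 0.74 with Dpdr1, which carries no fusion, and at 0.59 with Pdr1-Cyc8 Dpdr1. Stress gene levels were thus above the empty vector with or without a fusion, and the Pdr1-Sin3 arrays were the highest. The second comparison called 8 of 43 lower and 0 higher, with a median of -0.74, against 1.36% lower over all genes.

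**Figure D4:**
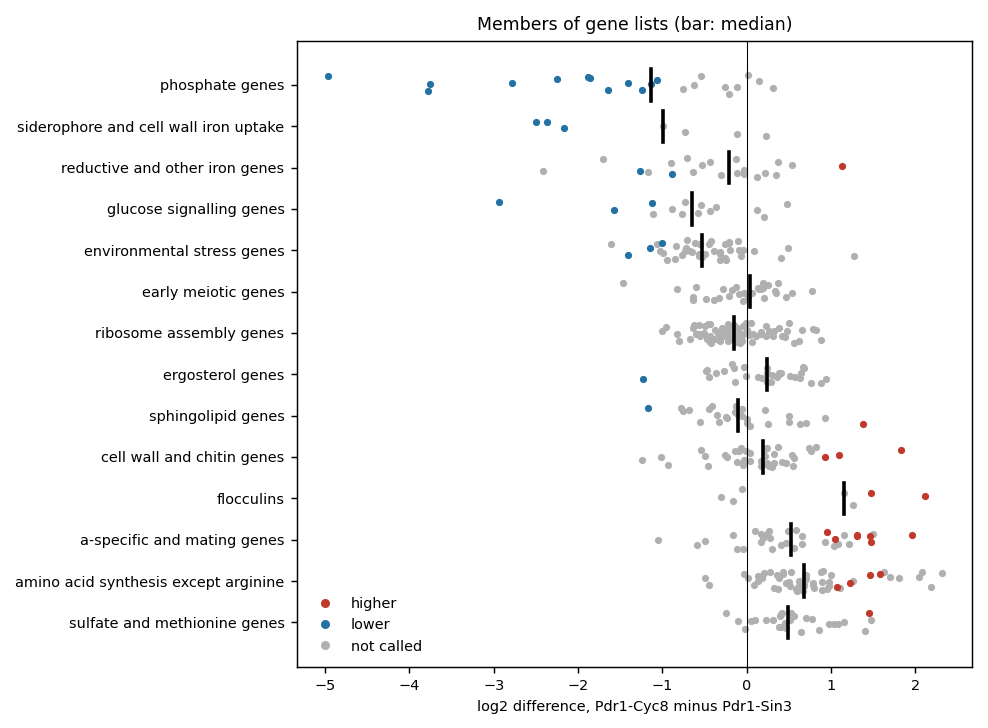
Log2 differences, Pdr1-Cyc8 minus Pdr1-Sin3, of the members of 14 gene lists (points, coloured where called) with the list median (bar). Phosphate genes reach farthest to the left, with 12 of 21 lower and a median of -1.13, and mating genes hold 7 of the calls to the right.

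Among genes of mating, 7 were higher with Pdr1-Cyc8. Pheromone bound to its receptor frees a G protein that starts a kinase cascade, which induces agglutinins, fusion proteins and inhibitors of the signal. The list has 34 measured members, of which 7 were higher and 0 lower, against a background of 0.955% higher, with a median of 0.52. The count was 1 to 6 when 1 array was left out. It was 3 without those 3 arrays of low ribosome assembly genes, a fit in which 19 of all 5656 genes were higher.

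SST2, which speeds the shut-off of the G protein, stood at 9.40, 9.04 and 9.04 with Pdr1-Cyc8, against 7.33, 7.38 and 6.87 with Pdr1-Sin3 and 8.23, 8.75 and 8.20 with the empty vector. The 3 groups did not overlap, and the difference was 1.96 (SE 0.216, limma adjusted p = 0.000163). With Pdr1-Cyc8 Dpdr1 it stood at 7.13, 7.26 and 7.37, with Dpdr1 at 8.91, 9.18 and 9.08, and its second difference was 0.06 (limma adjusted p = 0.925). AGA1, the anchor of a-agglutinin, stood at 10.38, 9.86 and 10.36 with Pdr1-Cyc8 and at 8.79, 8.74 and 8.64 with Pdr1-Sin3 (difference 1.48, limma adjusted p = 0.0122), and lost its call without Pdr1-Cyc8 replicate 1 (adjusted p = 0.0625). BAR1, the protease that degrades alpha-factor, was higher by 1.31 (limma adjusted p = 0.0132, lost without Pdr1-Cyc8 replicate 1 or Pdr1-Sin3 replicate 2, with a highest adjusted p of 0.0689). SAG1, the alpha-agglutinin gene, PRM1, a membrane fusion gene, FAR1, an inhibitor of the cell cycle kinase, and FUS1, a cell fusion gene, were higher by 1.46, 1.31, 1.05 and 0.95. STE12, the transcription factor of the pathway, differed by -0.59 and was not called. Of the 34 genes 0 passed in the second comparison, a count near the 2.40% called there over all genes. The median there was -0.30, on the other side of 0. AGA1 differed there by -1.06 (interval -1.67 to -0.46, limma adjusted p = 0.0595) and BAR1 by -0.79 (limma adjusted p = 0.11). SAG1 and PRM1 differed there by 0.15 and 0.03.

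At the cell surface, FLO1, a flocculin that binds cells together, stood at 5.59, 7.21 and 7.38 with Pdr1-Cyc8, against 5.43, 4.17 and 4.23 with Pdr1-Sin3 and 4.26, 4.24 and 4.30 with the empty vector. The lowest Pdr1-Cyc8 array lay just above the highest Pdr1-Sin3 array, and 2 Pdr1-Sin3 arrays and all 3 empty-vector arrays were near the floor of the scale. The difference was 2.12 (SE 0.401, limma adjusted p = 0.0111), or 3.69 with a pseudocount of 1 and 1.11 with 64. The call was lost without Pdr1-Sin3 replicate 2 or 3 (highest adjusted p = 0.0556). With Pdr1-Cyc8 Dpdr1 FLO1 stood at 8.28, 8.40 and 7.84, above all other arrays named here, and its second difference was 3.56 (limma adjusted p = 0.000118). The related FLO5, FLO10 and FLO11 differed by -0.16, 1.26 and -0.30 and were not called, and flocculin genes resemble each other in sequence, so probe sets may read more than 1 of them.

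SHC1, which activates chitin synthase III during sporulation, stood at 8.68, 8.14 and 8.11 with Pdr1-Cyc8, against 6.56, 6.15 and 6.73 with Pdr1-Sin3 and 5.74, 5.47 and 5.19 with the empty vector. Each group was clear of the next, and the difference was 1.83 (SE 0.243, limma adjusted p = 0.000786). The second difference was 1.03 (limma adjusted p = 0.0362). CHS3, the chitin synthase that SHC1 acts on, was higher by 0.93 (limma adjusted p = 0.0329) and CRH1, which links chitin to glucan, by 1.10 (limma adjusted p = 0.0406). Those were the 3 calls among 42 cell wall genes, against 0.955% higher over all genes. CHS3 lost its call whichever array was left out (highest adjusted p = 0.11). CRH1 kept its call in 2 of the 6 fits that left out 1 array (highest adjusted p = 0.164). The second differences were -0.31 for CHS3 and -0.07 for CRH1, neither called.

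CYC1, the gene of iso-1-cytochrome c, stood at 8.42, 8.56 and 9.08 with Pdr1-Cyc8, against 6.77, 7.58 and 7.42 with Pdr1-Sin3 and 8.71, 8.99 and 8.41 with the empty vector. Here the Pdr1-Cyc8 arrays lay among the empty-vector arrays and the Pdr1-Sin3 arrays below them. The difference was 1.43 (SE 0.271, limma adjusted p = 0.0111, lost without Pdr1-Sin3 replicate 1 at an adjusted p of 0.0677), and 1.51 in the second comparison (limma adjusted p = 0.00918). It was the single call among 22 cytochrome c and hypoxic genes, and 0 of 34 genes of the respiratory chain and ATP synthase passed, both near the 2.49% called over all genes.

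HSP30, a heat shock protein of the plasma membrane, stood at 10.40, 10.51 and 10.57 with Pdr1-Cyc8, against 7.28, 7.11 and 6.96 with Pdr1-Sin3 and 9.01, 10.23 and 9.31 with the empty vector. The compared groups were tight and far apart, with a difference of 3.37 (limma adjusted p = 0.0212). Its SE of 0.713 comes from the pooled spread of all groups, which includes Dpdr1 arrays at 10.62, 10.24 and 6.59, and the call held in 1 of the 6 fits that left out 1 array (highest adjusted p = 0.0735). With Pdr1-Cyc8 Dpdr1 it stood at 8.38, 7.55 and 8.20, a second difference of 0.93 that did not pass.

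Single genes of lipid synthesis were called in both directions. ELO1, a fatty acid elongase, was higher by 1.39 (limma adjusted p = 0.017) and by 1.27 in the second comparison (limma adjusted p = 0.0267). SUR2, a sphingolipid hydroxylase, was lower (difference -1.17, limma adjusted p = 0.0187), and so was ERG28, which tethers enzymes of ergosterol synthesis (difference -1.23, limma adjusted p = 0.00375). Of these ERG28 kept its call in all 6 fits, with levels of 8.04, 8.09 and 8.44 in Pdr1-Cyc8 cells and 9.65, 9.39 and 9.22 in Pdr1-Sin3 cells. It was the single call among 32 ergosterol genes, and ELO1 and SUR2 were the calls among 27 sphingolipid genes. POL30, the sliding clamp of DNA replication, stood at 7.38, 8.30 and 8.49 with Pdr1-Cyc8 and at 10.47, 10.36 and 9.87 with Pdr1-Sin3 (difference -2.17, limma adjusted p = 0.00144), against 8.30 to 8.76 with the empty vector. RPN3, a subunit of the proteasome lid, was lower (difference -1.02, limma adjusted p = 0.021), the single call among 33 proteasome genes. A count of 1 in a direction, in lists of 27 to 33 genes, is near the share called over all genes.

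Among called genes whose groups did not overlap, the remaining members of the 15 largest positive differences were TDA6, YAL037W, the cytochrome c peroxidase gene CCP1, the D-lactate dehydrogenase gene DLD3, the phospholipase B gene PLB1 and the acetyltransferase gene AYT1. TDA6 differed by 1.89, YAL037W by 1.72 (2.29 with a pseudocount of 1 and 1.07 with 64) and the other 4 by 1.52 to 1.62, and all 6 lost their calls without Pdr1-Sin3 replicate 1 (highest adjusted p from 0.0749 for TDA6 to 0.2 for YAL037W over the 6 fits). YOR387C, a gene of unknown function, stood at 5.75, 7.11 and 5.25 with Pdr1-Cyc8 and at 8.22, 8.24 and 8.86 with Pdr1-Sin3. It was lower (difference -2.40, limma adjusted p = 0.0102), and its call was lost without Pdr1-Cyc8 replicate 1 (adjusted p = 0.0514).

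Amino acid synthesis genes other than those of arginine lay above 0 in 54 of 57 cases, where 2888 of all 5656 genes did, with a median of 0.67. Higher calls were made for 4 of them, against 0.955% of all genes: HIS7 of histidine synthesis by 1.58, LEU4 of leucine synthesis by 1.47, the glutamate synthase gene GLT1 by 1.23 and the threonine deaminase gene ILV1 by 1.08. Against the empty vector the list averaged 0.75, 0.27 and 0.00 with Pdr1-Cyc8 and -0.41, -0.38 and -0.48 with Pdr1-Sin3. With Pdr1-Cyc8 Dpdr1 it averaged -0.43, -0.41 and -0.42, level with Pdr1-Sin3. The median of the second comparison was -0.02, with 1 of 57 higher (ILV1 at 1.01) and 0 lower, against 1.04% and 1.36% of all genes. The Pdr1-Cyc8 array with the highest average was replicate 1, the Pdr1-Cyc8 array where ribosome assembly genes were lowest. Without that array and Dpdr1 replicates 1 and 2, 0 of 57 were called. That fit called 19 of all 5656 genes higher and 46 lower, so 0 of 57 is near its background. Arginine genes were spread in the same way, at -0.15 to 1.5 with Pdr1-Cyc8 and -0.52, -0.46 and -0.51 with Pdr1-Sin3. None of 11 was called, although ARG3 and ARG8 differed by 2.80 and 1.84. MET1, a gene of siroheme synthesis, was higher by 1.45 (limma adjusted p = 0.0316), the single call among 28 sulfate and methionine genes. Both counts are near the 2.49% called over all genes.

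Several other groups gave no calls in the main comparison. Of 32 genes in the list of early meiotic genes, the textbook targets of Ume6 and Sin3, 0 passed, with a median of 0.04. The list is not purely meiotic, as it also holds the metabolic genes INO1 and CAR2, at 0.25 and -1.47. With 2.49% of all genes called, 0 of 32 is near the background, and nothing is read from it. The second comparison called 3 of the 32 lower and 0 higher, with a median of -0.08, against 1.36% lower over all genes. In the main comparison no call was made among 19 phospholipid synthesis, 15 citrate cycle, 86 ribosome assembly, 41 ribosomal protein, 10 ribonucleotide reductase and damage or 7 seripauperin genes.

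Probe sets for noncoding RNA genes, most of whose products carry no poly(A) tail, held calls in 1 direction. Of 159 measured genes for transfer, small nucleolar, small nuclear and other noncoding RNA, 17 were lower and 0 higher, with a median of -0.53. The 5486 protein-coding genes had a median of 0.02, and 2.26% of them were called, 0.984% higher and 1.28% lower. SNR52, a small nucleolar RNA, stood at 5.39, 4.89 and 5.18 with Pdr1-Cyc8, against 8.36, 8.17 and 7.72 with Pdr1-Sin3 and 5.29 to 6.0 with the empty vector (difference -2.93, limma adjusted p = 4.09e-05). The Pdr1-Cyc8 levels are near the floor of the scale, and the difference was -3.65 with a pseudocount of 1 and -1.93 with 64. SNR14, the U4 spliceosomal RNA, and the transfer RNA gene YNCM0020W were lower, with differences of -2.01 for SNR14 and -2.07 for YNCM0020W (-2.51 and -1.37 for YNCM0020W with pseudocounts of 1 and 64). The count of lower noncoding genes was 9 to 20 when 1 array was left out. The second differences of SNR52, SNR14 and YNCM0020W were -0.70, 0.18 and -0.30, none called, and of the 159 genes 6 were higher and 2 lower, against 1.04% and 1.36% of all genes. Averaged over the class and set against the empty vector, levels were -0.12, -0.10 and 0.31 on the Pdr1-Cyc8 arrays, 0.62, 0.48 and 0.75 on the Pdr1-Sin3 arrays and 0.95, 0.93 and 0.77 on the Pdr1-Cyc8 Dpdr1 arrays. All 6 arrays of the spike-in set that holds Pdr1-Sin3 lay above all 9 of the other.

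Called protein-coding genes also differed in length. The 54 higher with Pdr1-Cyc8 had a median length of 1696.5 bp and the 70 lower a median of 873 bp, against 1249.5 bp for all 5486. With the genes split by length into 5 groups of like size, the shortest, up to 672 bp, held 2 higher and 28 lower, and in the fourth, from 1482 to 2124 bp, 26 were higher and 10 lower. For the second comparison the medians were 1017 bp for higher and 1152 bp for lower genes, and the shortest group held 13 higher and 16 lower. The part of the spike-in set in the calls of short and noncoding transcripts was not tested. Among the phosphate, iron and mating genes called in the main comparison, the second, within a spike-in set, also called PHO5, SPL2, PHM6, GPP2, FIT2, FIT3, ARN2 and HMX1 lower. It did not call PHO84, PHO89, the VTC genes, SST2 or AGA1.

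**Figure D5:**
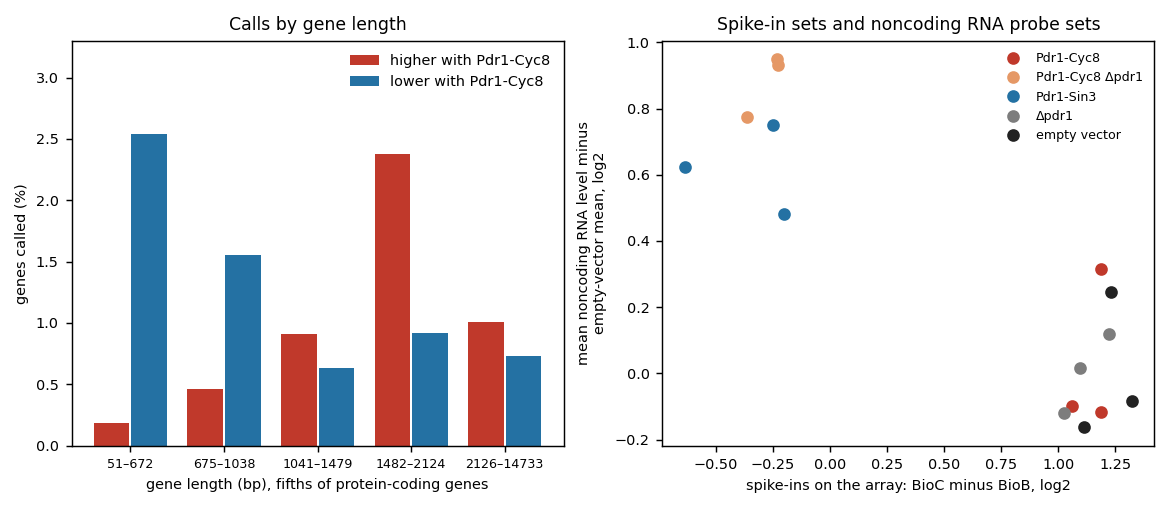
Left, percentage of protein-coding genes called higher and lower with Pdr1-Cyc8 in each of 5 groups by gene length (bp). Right, mean level of noncoding RNA genes minus the empty-vector mean against the difference of the BioC and BioB spike-ins on each of the 15 arrays (log2); the Pdr1-Sin3 and Pdr1-Cyc8 Δpdr1 arrays form a group at the upper left, apart from the other 9.

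By the platform annotation, 167 of the 252 called probe sets have a single gene, 14 have several and 71 have none listed. Those with none were 18 higher and 53 lower with Pdr1-Cyc8. They are unnamed here.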

How the data were processed

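The authors deposited linear signal intensity values, 1 per probe set and array, for 15 Affymetrix YG-S98 arrays. The labels name no software, background correction or scaling for these intensities. The trimmed mean (2% at each end) was 500.5 to 500.7 on the 6 arrays compared, and their median signal was 118.7 to 138.9. Of 9335 probe sets 60 controls were left out, and 9275 were quantile normalised over all 15 arrays and converted to log2(intensity + 16). The platform annotation gave a single gene for 6504 probe sets (5656 genes), several for 328 and none for 2443. A gene was represented by the brightest of its probe sets.

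Group means were fitted to all 15 arrays with limma 3.58.1 in R 4.3.3 (10 residual and 5.35 prior degrees of freedom). Calls were made at a Benjamini-Hochberg adjusted p under 0.05, separately in 2 comparisons of 9275 probe sets. Standard errors (SE) are moderated, and intervals are 95% intervals from the same fit. The comparison, the gene lists and the rule for named genes were chosen with earlier results of these data known. The rule named the fusion genes, the PDR genes, the subunits of both corepressors, the 15 largest called differences each way without overlap between the groups, and up to 5 called members of each list. Gene lengths are genomic spans of the RefSeq genes. The fit was checked on simulated data. Alternatives were the deposited values, median centring, leaving out the dimmest 25% of probe sets, pseudocounts of 1 and 64, another variance prior, a fit of the compared groups alone, array weights, a replicate block, dropping 3 arrays of low ribosome assembly genes (Pdr1-Cyc8 replicate 1, Dpdr1 replicates 1 and 2), and leaving out each array. Figures were drawn with matplotlib 3.10.9.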

Additional observations from a re-analysis of the deposited data

How the results depend on the processing

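For Pdr1-Cyc8 against Pdr1-Sin3, 252 probe sets were called (96 higher, 156 lower). The values as deposited gave 234, median centring 251, a filter on the dimmest probe sets 249, a pseudocount of 64 gave 311 and a trended robust prior 278. Larger moves came with a pseudocount of 1 (134, of which 42 higher and 92 lower), a fit of only the 6 arrays compared (143, 48 and 95), array weights (435, 174 and 261) and dropping the 3 arrays of low ribosome assembly genes (126, 39 and 87). Leaving out 1 array at a time gave 83 to 221 calls, 23 to 73 higher and 57 to 148 lower. Of the probe sets called, 62 were called in all 6 of those fits, 11 higher and 51 lower. With the replicate block 190 were called (68 higher, 122 lower). Deviations of same-numbered arrays from their group means correlated at -0.022, -0.050 and 0.010, and at -0.014, 0.102 and -0.007 in the second comparison. Such correlations cannot settle whether same-numbered samples were prepared together, and the main fit used no pairing. For Pdr1-Cyc8 Dpdr1 against Pdr1-Sin3, 235 probe sets were called, 32.8% of them higher, against 238 and 45% with the values as deposited. That count was 142 with a pseudocount of 1, 414 with only the groups compared, 533 with array weights, 440 without the 3 arrays, and 67 to 175 leaving out 1 array. Of the 51 named genes called, 16 were called under every alternative and 0 reversed. The cause of these moves was not tested, and the smaller fits also hold fewer arrays. The spike-in set cannot be told apart from the groups, and the floor of the scale limits differences of dim genes. Between pseudocounts of 1 and 64 the difference moved by over 1.5 times for 12 of the 51: FLO1, PHM6, YAL037W, SNR52, YNCM0020W, RTN2, AYT1, SNR14, TDA6, YOR387C, SPL2 and GRE2.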
